A study of Drosophila melanogaster with 18 samples.

Results

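The aminoacyl-tRNA synthetase genes of Drosophila melanogaster were followed in wing imaginal discs that expressed a wild type or a dominant negative form of Tip60. Members were taken by name: a gene belonged to the set if its FlyBase ID mapped to a symbol made of a 3-letter amino acid name, or GluPro, followed by RS, with or without the ending -m. This gave 31 of the 17559 genes in the count tables. By name alone, 17 without the ending -m were counted as cytosolic and 14 with it as mitochondrial. The naming rule itself used no measured value, but the members were chosen with earlier results of these data known. LeuRS and PheRS-m also fit the naming rule but were not analysed here, because the tables hold no row under their annotated IDs.

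Aminoacyl-tRNA synthetases join each amino acid to its tRNA and so supply both the cytosolic and the mitochondrial ribosome. In animals most amino acids have 1 nuclear gene for the cytosolic enzyme and another for the mitochondrial enzyme, which is imported after translation. GluProRS is a fused enzyme that charges both glutamate and proline tRNAs, and the genes GlyRS, HisRS, LysRS, ThrRS and GlnRS have no -m partner among the members. The names do not show whether a gene without a partner also makes a mitochondrial form, and all of them were counted as cytosolic. In mammals several cytosolic synthetases sit together in a multi-synthetase complex, held by the AIMP scaffold proteins. Tip60, a histone acetyltransferase, is the catalytic subunit of the chromatin-modifying NuA4 complex.

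Polyadenylated RNA was sequenced from discs of wandering larvae of the third instar, in 18 libraries that fall into 6 groups of 3. The groups were control, Tip60wt (the wild type transgene) and Tip60dn (the dominant negative transgene), each after 48 h or 78 h at 28 °C, a temperature at which the transgene was expressed. In all groups a heat shock of 30 min at 37 °C had induced overlapping clones, the transgene had been kept silent at 18 °C before the shift, and each library pooled 40 discs. The driver, the strain background and the genotype of the control are not given in the labels, nor is it said whether replicates were separate crosses, so p-values measure the spread between these libraries. Because clones and their neighbours were sequenced together, fewer cells of a kind and less RNA per cell cannot be told apart.

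Libraries held 65277725 to 105716567 counts, and the lowest count of any member in any library was 413, in GluRS-m. Tip60 itself averaged 33.7 and 38.9 CPM (counts per 1e6 library counts, TMM-scaled) in the control at 48 h and 78 h, and 1577 to 3043 in the transgene groups. Both transgenes carry Tip60 sequence, so these counts do not check which transgene a library holds. The 6 wing disc markers summed to 1650 to 1994 CPM over all libraries, and none was at 0. Apart from the rest stood Tip60wt 48 h replicate 2, with a fat body marker sum of 2752 CPM against 166 and 13.4 in its group, and control 78 h replicate 1, with a salivary gland marker sum of 2452 CPM against 63.2 and 29.5.

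Levels per kilobase of annotated exon separated the enzymes of the 2 compartments. AlaRS was the highest member at a mean of 126 CPM per kb over the 18 libraries, followed by GlyRS at 111, SerRS at 107, ThrRS at 103 and LysRS at 101. The lowest cytosolic enzymes were HisRS at 26.8 and AspRS at 26.6 CPM per kb, which differed by less than their ranges over libraries. Among mitochondrial enzymes AspRS-m was the highest at 33.2 CPM per kb, above HisRS and AspRS. All others lay between 11.9 CPM per kb for SerRS-m and 3.82 for MetRS-m. The neighbours in the middle of the mitochondrial order, from SerRS-m at 11.9 to AlaRS-m at 10.5, had overlapping ranges. Within a gene the highest library exceeded the lowest by 1.15-fold for ThrRS and GlnRS up to 1.80-fold for GluRS-m, the least counted member.

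**Figure D1:**
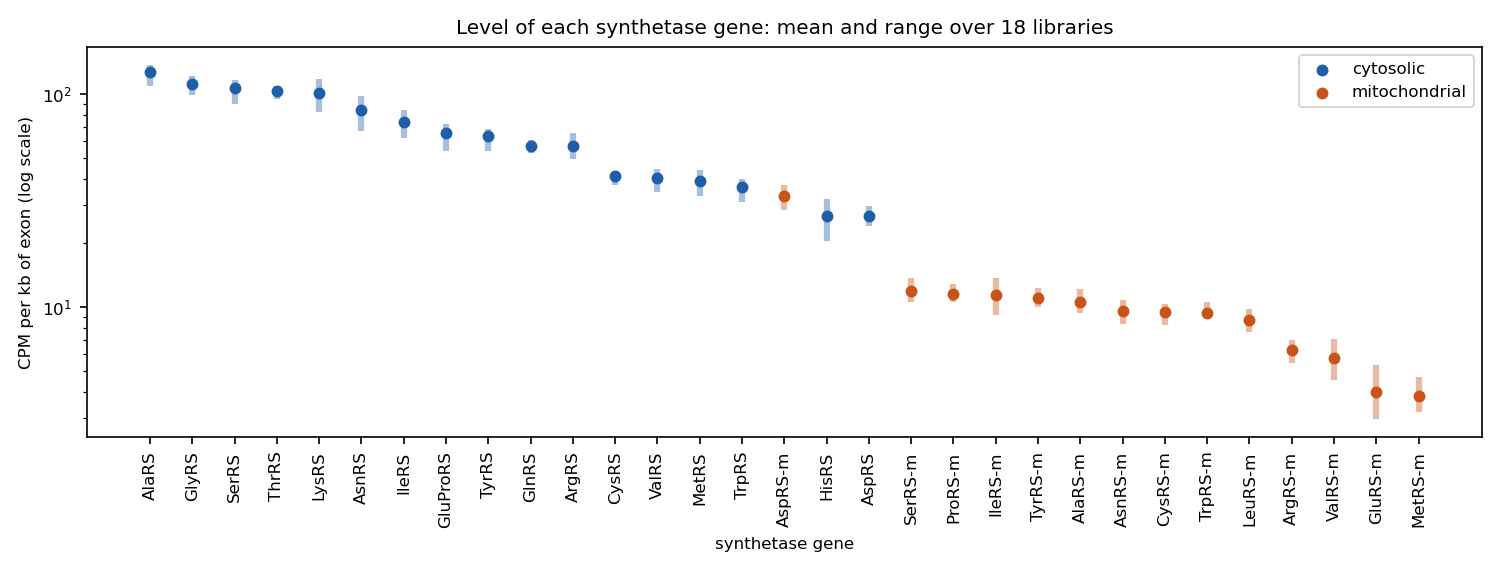
Mean level of each of the 31 synthetase genes in CPM per kb of exon (log axis), with bars from the lowest to the highest of the 18 libraries, cytosolic enzymes in blue and mitochondrial in orange. AspRS-m at 33.2 CPM per kb is the only mitochondrial enzyme that lies among the cytosolic ones.

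The first question was which synthetase transcripts differ between discs with Tip60dn and discs with Tip60wt. After 48 h, 11 of the 17 cytosolic genes were lower in Tip60dn and none was higher, while 7 of the 14 mitochondrial genes were higher and 1 was lower. After 78 h, 16 of 17 cytosolic genes were lower and none was higher, with 1 mitochondrial gene higher and 1 lower. The changes were small: the median log2 fold change of the cytosolic genes was −0.15 at 48 h and −0.21 at 78 h, with a range over both durations from −0.45 to 0.03. For the mitochondrial genes the medians were 0.17 and 0.00. A gene is called here when the adjusted p of edgeR's quasi-likelihood test, corrected over all genes by Benjamini-Hochberg, is under 0.05.

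The background of these counts was wide. At 48 h 35.7% of all tested genes were called in this comparison, 18.0% higher and 17.7% lower, and at 78 h 36.8%, 17.6% higher and 19.2% lower, with a median log2 fold change of 0.01 at each duration. Genes with a high CPM were more often lower in Tip60dn than genes with a low one. All 17 cytosolic members had a mean of at least 50 CPM, and among all genes of that level 34.4% were lower and 13.5% higher at 48 h, and 36.0% lower and 15.2% higher at 78 h, with medians of −0.09 and −0.07. Of the mitochondrial members 13 had a mean of 5 to 50 CPM, a band in which 21.0% of all genes were higher and 16.5% lower at 48 h, and 18.1% higher and 19.3% lower at 78 h. At 78 h 1 of the 13 members in that band was higher, below the share of such genes, and none was lower. The 1 mitochondrial gene that was lower, AspRS-m, has a mean above 50 CPM. These bands were chosen after the levels had been seen.

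The same Tip60dn libraries were also compared with the control. At 48 h 11 cytosolic genes were lower and 6 mitochondrial genes higher, with 1 mitochondrial gene lower, against a background of 39.0% called, 19.6% higher and 19.4% lower. At 78 h 15 cytosolic genes were lower, 4 mitochondrial genes higher and 1 lower, against 44.2% called, 22.4% higher and 21.7% lower. Among genes of at least 50 CPM 37.8% were lower and 15.6% higher at 48 h, and 39.9% lower and 18.6% higher at 78 h. In the band of 5 to 50 CPM 23.7% were higher and 17.9% lower at 48 h, and 22.7% higher and 22.8% lower at 78 h. Median log2 fold changes were −0.17 and −0.28 for the cytosolic and 0.16 and 0.07 for the mitochondrial genes. In all 4 comparisons with Tip60dn 11 cytosolic genes were lower: AlaRS, ArgRS, AsnRS, GluProRS, HisRS, IleRS, LysRS, MetRS, SerRS, TrpRS and TyrRS. MetRS-m was the mitochondrial gene higher in all 4, and AspRS-m the one lower in all 4. The comparisons with Tip60wt and with control share the Tip60dn libraries, so they do not count as separate evidence.

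**Figure D2:**
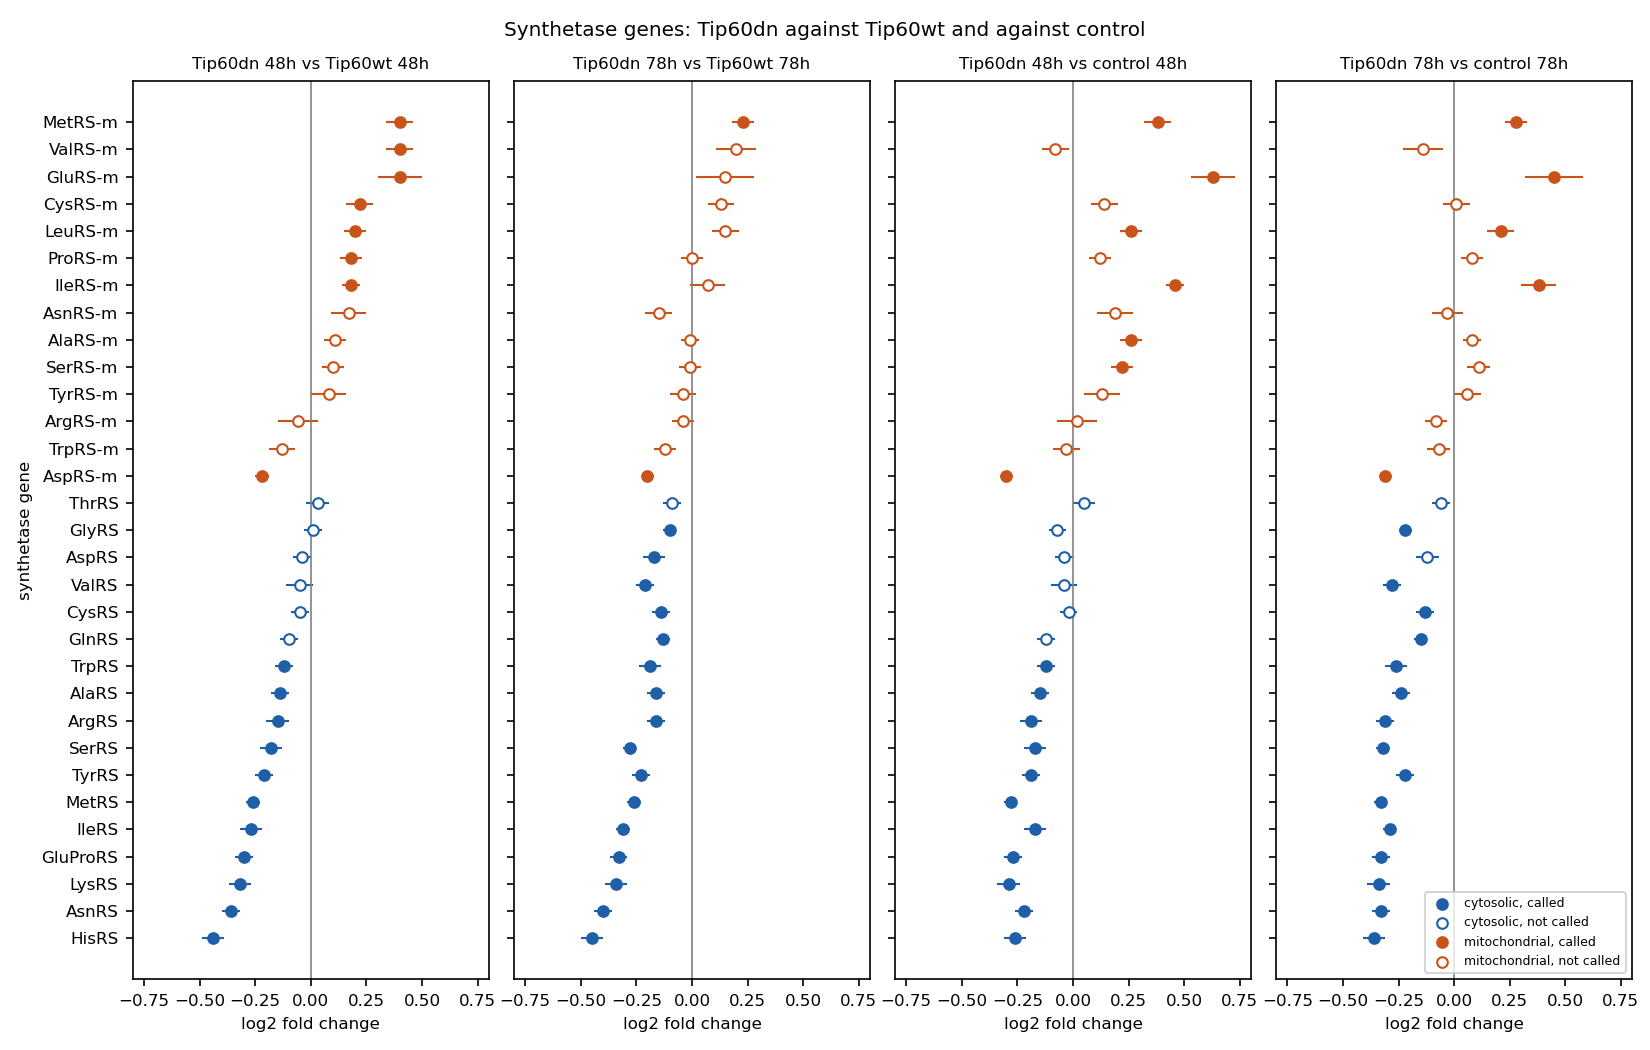
Log2 fold change of each of the 31 synthetase genes (horizontal axis, bars are standard errors) in the 4 comparisons of Tip60dn with Tip60wt and with control, filled points being called at an adjusted p under 0.05. Cytosolic enzymes (blue) lie at or left of 0 apart from values up to 0.05, whereas 7, 1, 6 and 4 mitochondrial enzymes (orange) are called to the right of it.

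Among the cytosolic enzymes AsnRS and HisRS, which charge asparagine and histidine tRNAs, gave the largest decreases against Tip60wt. AsnRS (FBgn0086443, chromosome 2L:19129469-19131954, minus strand, BDGP6) measured 207, 206 and 199 CPM in the control, 233, 220.3 and 222 in Tip60wt and 176, 177 and 172 in Tip60dn at 48 h. At 78 h the values were 211, 207 and 209.7 in the control, 220.3, 219.8 and 219 in Tip60wt, and 174, 164 and 159 in Tip60dn. Every Tip60dn library was below every library of the other groups at both durations. Against Tip60wt the log2 fold change was −0.36 (SE 0.04, adjusted p 1.57e-04) at 48 h and −0.40 (SE 0.04, adjusted p 7.30e-05) at 78 h. Against the control it was −0.22 (adjusted p 0.00164) and −0.33 (adjusted p 1.57e-04).

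HisRS (X:18515428-18520445, plus strand) was at 74.7, 81.2 and 80.3 CPM in the control, 91.4, 86.2 and 91.3 in Tip60wt and 68.3, 61.8 and 66.9 in Tip60dn after 48 h. After 78 h it was at 78.1, 81.1 and 79.7, at 80.5, 85.0 and 86.8, and at 65.0, 61.7 and 58.5 CPM in the same order. Tip60dn again lay below both other groups without overlap, and at 48 h the 3 Tip60wt libraries lay above the 3 controls. The log2 fold change from Tip60wt to Tip60dn was −0.44 (SE 0.05, adjusted p 3.25e-04) at 48 h and −0.45 (SE 0.05, adjusted p 1.88e-04) at 78 h, the largest decrease of any member in these comparisons. From control to Tip60dn it was −0.26 (adjusted p 0.00395) and −0.36 (adjusted p 3.99e-04). Part of the larger difference from Tip60wt at 48 h lies in Tip60wt itself, which was 0.19 above the control for HisRS (adjusted p 0.0926) and 0.14 above it for AsnRS (adjusted p 0.0751), neither of them called.

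MetRS, the methionine enzyme that also charges the cytosolic initiator tRNA, varied little between libraries. It measured 144, 141 and 140.0 CPM in the control, 140.5, 138 and 141 in Tip60wt and 117, 114 and 118 in Tip60dn at 48 h. The 78 h libraries had 149, 144 and 145, then 139, 138 and 139, and 119.7, 115 and 113 CPM. The Tip60dn libraries formed a separate low group at each duration. Log2 fold changes were −0.26 against Tip60wt at both durations (SE 0.03, adjusted p 4.41e-04 and 4.58e-04), and −0.28 and −0.33 against the control (adjusted p 2.44e-04 and 1.02e-04).

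GluProRS is among the most counted members. At 48 h it reached 376, 376 and 373 CPM in the control, 375, 378 and 392 in Tip60wt, and 306, 300.2 and 324 in Tip60dn. At 78 h the values were 392, 382 and 388, then 386, 389.8 and 386, and 324, 303 and 293. Control and Tip60wt overlapped, and all 6 Tip60dn libraries were below them. The fall against Tip60wt was −0.30 on the log2 scale (SE 0.04, adjusted p 5.50e-04) at 48 h and −0.33 (SE 0.04, adjusted p 2.63e-04) at 78 h. An antisense RNA, asRNA:CR46092, lies opposite 16.6% of its exon length, and the strand setting of the counting is not given.

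LysRS, the lysine enzyme, showed a decrease of similar size. Its values were 244, 243 and 225 CPM in the control, 236, 244 and 248 in Tip60wt and 194, 187 and 201 in Tip60dn at 48 h. At 78 h they were 252, 259 and 244, then 264, 247 and 241, and 212, 194 and 186. No Tip60dn library reached the range of another group. The log2 fold change against Tip60wt was −0.32 at 48 h and −0.34 at 78 h (SE 0.05, adjusted p 8.41e-04 and 0.00130), and against the control −0.29 and −0.34 (adjusted p 0.00112 and 9.41e-04).

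SerRS and IleRS, the serine and isoleucine enzymes, stood out at 78 h. SerRS was at 221, 219 and 220.4 CPM in the control, 215, 213 and 214 in Tip60wt and 183, 173 and 172 in Tip60dn. The decrease in SerRS was −0.28 against Tip60wt (SE 0.03, adjusted p 2.19e-04) and −0.32 against the control (SE 0.03, adjusted p 9.38e-05). At 48 h SerRS was at 217, 209.6 and 212 in the control, 217, 206 and 218 in Tip60wt, and 200.2, 189 and 177 in Tip60dn. Tip60dn lay below both other groups there too, while control and Tip60wt overlapped, with −0.18 against Tip60wt (adjusted p 0.0205), a call that was lost without Tip60wt replicate 1 or 3 or Tip60dn replicate 2 or 3, with adjusted p from 0.0504 to 0.0626.

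IleRS at 78 h measured 307, 297 and 308 CPM in the control, 316, 309.9 and 297 in Tip60wt and 254, 249.6 and 241 in Tip60dn. Its log2 fold change against Tip60wt was −0.31 (SE 0.03, adjusted p 2.40e-04), and at 48 h −0.27 (SE 0.05, adjusted p 0.00347). The 48 h libraries held 292, 313 and 283, then 322, 329 and 299, and 262, 255 and 268 CPM, again with Tip60dn below the rest.

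AlaRS and AspRS mark the ends of the cytosolic order. AlaRS, the alanine enzyme, was at 436, 438 and 421 CPM in the control, 438, 410.5 and 438 in Tip60wt and 394, 382 and 386 in Tip60dn at 48 h, and at 451, 431 and 448, then 424, 411 and 422, and 392, 374 and 359.8 at 78 h. It fell by 0.14 (adjusted p 0.0196) and by 0.16 (adjusted p 0.00885) on the log2 scale against Tip60wt, and the 48 h call was lost without Tip60wt replicate 1 or 3 or Tip60dn replicate 2 (adjusted p 0.0507 to 0.0685). AspRS, the aspartate enzyme, was at 62.1, 61.6 and 58.6 CPM in the control, 62.0, 62.6 and 58.6 in Tip60wt and 58.9, 60.0 and 58.6 in Tip60dn at 48 h, when the groups overlapped. At 78 h it was at 61.9, 61.6 and 60.2, then 67.6, 60.9 and 60.8, and 58.7, 55.0 and 54.4 CPM, without overlap of Tip60dn with the others. Its log2 fold change against Tip60wt was −0.04 at 48 h (adjusted p 0.456) and −0.17 at 78 h (adjusted p 0.0234), and the latter was not called without Tip60dn replicate 2 or 3 (adjusted p 0.0766 and 0.0765) or among the 6 libraries alone (0.0613). AspRS shares 69.5% of its exon length with asRNA:CR45141 on the other strand, so its counts are uncertain if strand was not used.

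The remaining cytosolic enzymes moved less. ArgRS, TrpRS and TyrRS, for arginine, tryptophan and tyrosine, were lower at both durations, by −0.12 to −0.23 on the log2 scale against Tip60wt. The call of ArgRS at 48 h did not hold without any 1 of the 6 libraries (adjusted p 0.0521 to 0.126) or with the replicate number as a block (adjusted p 0.0659). At 78 h the call of ArgRS was lost without Tip60wt replicate 2 (adjusted p 0.0682) or Tip60dn replicate 3 (0.0692), and that of TrpRS without Tip60dn replicate 2 (0.0584) or 3 (0.0520). TrpRS at 48 h lost its call without Tip60wt replicate 2 or any 1 Tip60dn replicate (adjusted p 0.0505 to 0.0879). CysRS, GlnRS, GlyRS and ValRS were lower at 78 h, by −0.10 to −0.21, and were not called at 48 h. Of these GlyRS lost its call without any 1 library but Tip60dn replicate 1 (adjusted p 0.0547 to 0.107), and CysRS without Tip60wt replicate 2 or 3 or Tip60dn replicate 2 or 3 (adjusted p 0.0779 to 0.101). ThrRS, the threonine enzyme, was called in none of the 4 comparisons of Tip60dn with another group, with log2 values from −0.09 to 0.05. The 6 genes AsnRS, GluProRS, HisRS, LysRS, MetRS and TyrRS kept their call in all 4 Tip60dn comparisons under every alternative run.

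Groupings known from the enzymes' structure were described without a test. Of the 7 measured cytosolic enzymes that belong to the mammalian multi-synthetase complex, 5 were lower in Tip60dn than in Tip60wt at 48 h and 7 at 78 h, with a median log2 fold change of −0.26 at each duration. Of the 10 outside it, 6 and 9 were lower, with medians of −0.13 and −0.20. By catalytic fold, 5 of 8 class I and 5 of 8 class II enzymes were lower at 48 h, and 8 of 8 and 7 of 8 at 78 h. Medians of the classes were −0.14 and −0.16 at 48 h, and −0.20 and −0.23 at 78 h.

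**Figure D3:**
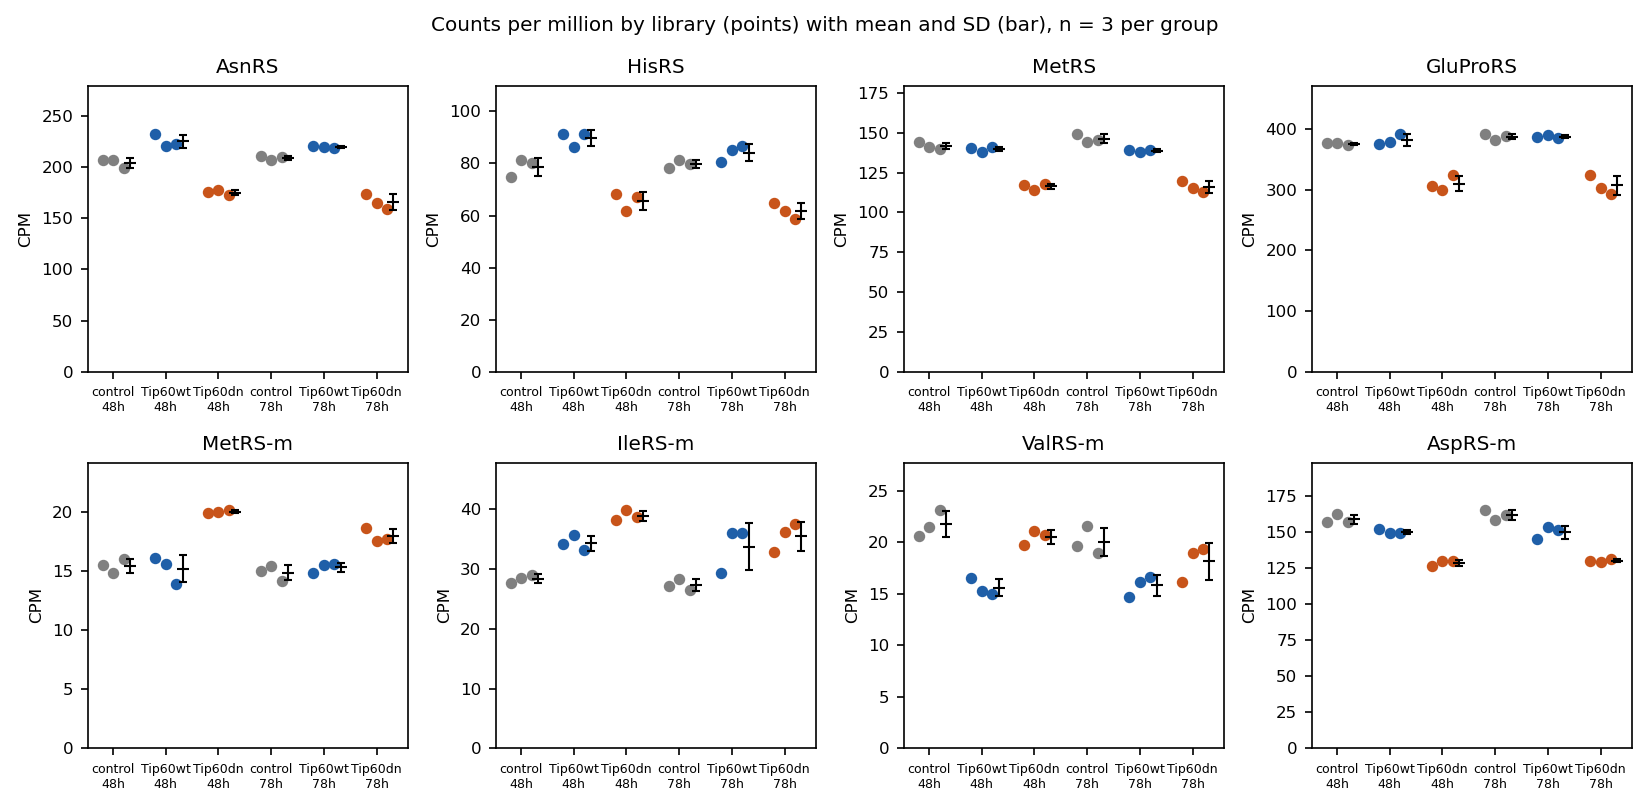
CPM of 8 synthetase genes in each library (points) with the mean and SD of each group (bars, n = 3), grey for control, blue for Tip60wt and orange for Tip60dn. AsnRS, HisRS, MetRS, GluProRS and AspRS-m are low in all Tip60dn libraries, MetRS-m is high in them and IleRS-m is low in the control. ValRS-m is low in Tip60wt at 48 h, and at 78 h Tip60dn overlaps Tip60wt.

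The mitochondrial enzymes followed several patterns. MetRS-m, which charges the mitochondrial methionine tRNA, was higher in Tip60dn than in both other groups at both durations. It measured 15.5, 14.8 and 16.0 CPM in the control, 16.1, 15.6 and 13.9 in Tip60wt, and 19.9, 20.0 and 20.1 in Tip60dn at 48 h. At 78 h it measured 15.0, 15.4 and 14.1, then 14.8, 15.5 and 15.6, and 18.7, 17.5 and 17.7 CPM. No other library reached the Tip60dn range. The log2 fold change against Tip60wt was 0.40 (SE 0.06, adjusted p 0.00149) at 48 h and 0.23 (SE 0.05, adjusted p 0.00866) at 78 h, and against the control 0.38 (adjusted p 0.00163) and 0.28 (adjusted p 0.00270).

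IleRS-m rose with both transgenes. At 48 h it stood at 27.6, 28.5 and 29.1 CPM in the control, 34.3, 35.6 and 33.1 in Tip60wt and 38.2, 39.9 and 38.7 in Tip60dn, 3 groups that did not overlap. Tip60wt was 0.28 above the control (SE 0.04, adjusted p 0.00725), and Tip60dn was 0.46 above the control (SE 0.04, adjusted p 8.74e-05) and 0.18 above Tip60wt (SE 0.04, adjusted p 0.00884). At 78 h the values were 27.2, 28.3 and 26.5, then 29.3, 36.0 and 36.0, and 32.8, 36.2 and 37.5 CPM. The Tip60wt and Tip60dn libraries overlapped there and both lay above the control. The difference of Tip60dn from the control at 78 h was 0.38 (SE 0.08, adjusted p 0.00569), and that of Tip60wt was 0.31 (SE 0.08, adjusted p 0.0791).

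GluRS-m, the glutamate enzyme of the organelle and the least counted member, had the same order of means. It was at 5.05, 5.62 and 5.92 CPM in the control, 6.86, 6.72 and 5.86 in Tip60wt and 8.77, 7.74 and 9.09 in Tip60dn at 48 h. The Tip60dn libraries were above all others, and 1 Tip60wt library lay within the control range. The increase was 0.63 against the control (SE 0.10, adjusted p 0.00155) and 0.40 against Tip60wt (SE 0.10, adjusted p 0.0156) on the log2 scale, the latter lost without Tip60wt replicate 3, Tip60dn replicate 1 or Tip60dn replicate 3 (adjusted p 0.0525 to 0.0593). At 78 h it was at 5.29, 5.86 and 5.64, then 6.15, 6.74 and 7.77, and 6.91, 8.94 and 7.08 CPM, with Tip60wt and Tip60dn overlapping. Against the control the 78 h value was 0.45 (SE 0.13, adjusted p 0.0166), and it was no longer called without control replicate 1 (0.41, adjusted p 0.0636) or Tip60dn replicate 2 (0.33, adjusted p 0.0530). GluRS-m lies 171 bases from TyrRS on the minus strand of chromosome 3L, and at 48 h GluRS-m was higher and TyrRS lower in Tip60dn than in both other groups.

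LeuRS-m, for leucine, was at 23.5, 24.4 and 25.3 CPM in the control, 24.8, 24.8 and 26.9 in Tip60wt and 29.2, 29.1 and 29.4 in Tip60dn at 48 h. The Tip60dn libraries were the highest, by 0.20 against Tip60wt (SE 0.05, adjusted p 0.00961) and 0.26 against the control (SE 0.05, adjusted p 0.00228). Without Tip60wt replicate 1 the first value was 0.16 (adjusted p 0.0696). At 78 h LeuRS-m was at 24.6, 25.0 and 23.1, then 24.1, 24.4 and 27.1, and 27.0, 27.2 and 29.6 CPM. The increase over the control was 0.21 (adjusted p 0.0223) and was not called without control replicate 1, control replicate 3 or Tip60dn replicate 3, with adjusted p from 0.0585 to 0.0950.

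ValRS-m, for valine, differed from the others in that Tip60wt was the low group. The control held 20.7, 21.5 and 23.1 CPM at 48 h, Tip60wt 16.5, 15.2 and 15.0, and Tip60dn 19.8, 21.1 and 20.7. Tip60wt lay below both others without overlap, whereas Tip60dn overlapped the control. Tip60wt was −0.48 from the control (SE 0.06, adjusted p 0.00259), Tip60dn was 0.40 above Tip60wt (SE 0.06, adjusted p 0.00125), and Tip60dn differed from the control by −0.08 (SE 0.06, adjusted p 0.333). At 78 h the libraries held 19.6, 21.6 and 19.0, then 14.7, 16.2 and 16.6, and 16.1, 19.0 and 19.3 CPM, and the difference of Tip60wt from the control was −0.34 (SE 0.09, adjusted p 0.0648). Tip60dn overlapped Tip60wt there and was 0.20 above it (SE 0.09, adjusted p 0.102), which was not called.

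AspRS-m was the only mitochondrial member called lower in Tip60dn, in all 4 comparisons. AspRS-m (FBgn0051739, 2L:16827078-16832093, plus strand) was at 157, 163 and 157 CPM in the control, 152, 149.7 and 149.9 in Tip60wt and 126, 130.3 and 130.1 in Tip60dn at 48 h. At 78 h it was at 166, 158 and 162, then 145, 154 and 152, and 130.3, 129 and 131 CPM. Control, Tip60wt and Tip60dn were ordered from high to low without overlap at both durations. Against Tip60wt the decrease was −0.22 (SE 0.03, adjusted p 0.00115) and −0.20 (SE 0.03, adjusted p 0.00166), and against the control −0.30 (SE 0.03, adjusted p 2.09e-04) and −0.31 (SE 0.03, adjusted p 1.49e-04). The difference between Tip60wt and control was not called (−0.08 and −0.10, adjusted p 0.261 and 0.119). AspRS-m is the only mitochondrial member above 50 CPM and has the longest exon length of the 14, 4422 bp.

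Other mitochondrial calls were fewer. CysRS-m and ProRS-m were 0.22 and 0.18 higher in Tip60dn than in Tip60wt at 48 h (adjusted p 0.0120 and 0.0169), and AlaRS-m and SerRS-m 0.26 and 0.22 higher in Tip60dn than in the control at 48 h (adjusted p 0.00276 and 0.00497). The call of ProRS-m was lost without the filter on low counts (0.0511) and without Tip60wt replicate 3 or Tip60dn replicate 2 (0.0592 and 0.0652). ArgRS-m, AsnRS-m, TrpRS-m and TyrRS-m were called in no comparison of Tip60dn. CysRS-m, SerRS-m and ArgRS-m overlap a gene on the other strand by 14.3%, 13.9% and 11.8% of their exon length.

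Sums over genes were taken in each library. The 17 cytosolic enzymes together made 3324 ± 71.6 CPM (SD, n = 3) in the control, 3372 ± 19.2 in Tip60wt and 2983 ± 35.7 in Tip60dn at 48 h, and 3426 ± 26.1, 3360 ± 39.3 and 2862 ± 110.1 at 78 h. No Tip60dn library, at most 3020 CPM, reached the lowest of the others at 3242. The 13 mitochondrial enzymes other than AspRS-m, which was left out after its values were seen, made 261.4 ± 3.56, 270.2 ± 7.58 and 300.0 ± 1.66 CPM at 48 h. At 78 h they made 261.6 ± 4.64, 272.4 ± 7.04 and 279.6 ± 10.7 CPM, and Tip60dn replicate 1, at 267.7, lay within the Tip60wt range. With AspRS-m the mitochondrial sum was 420.5, 420.8 and 429.0 CPM at 48 h and 423.7, 422.5 and 409.9 at 78 h. With that gene included Tip60dn overlapped Tip60wt at both durations and the control at 78 h, and at 48 h its lowest library equalled the highest control at 426.6 CPM, and its mean was the highest at 48 h and the lowest at 78 h.

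**Figure D4:**
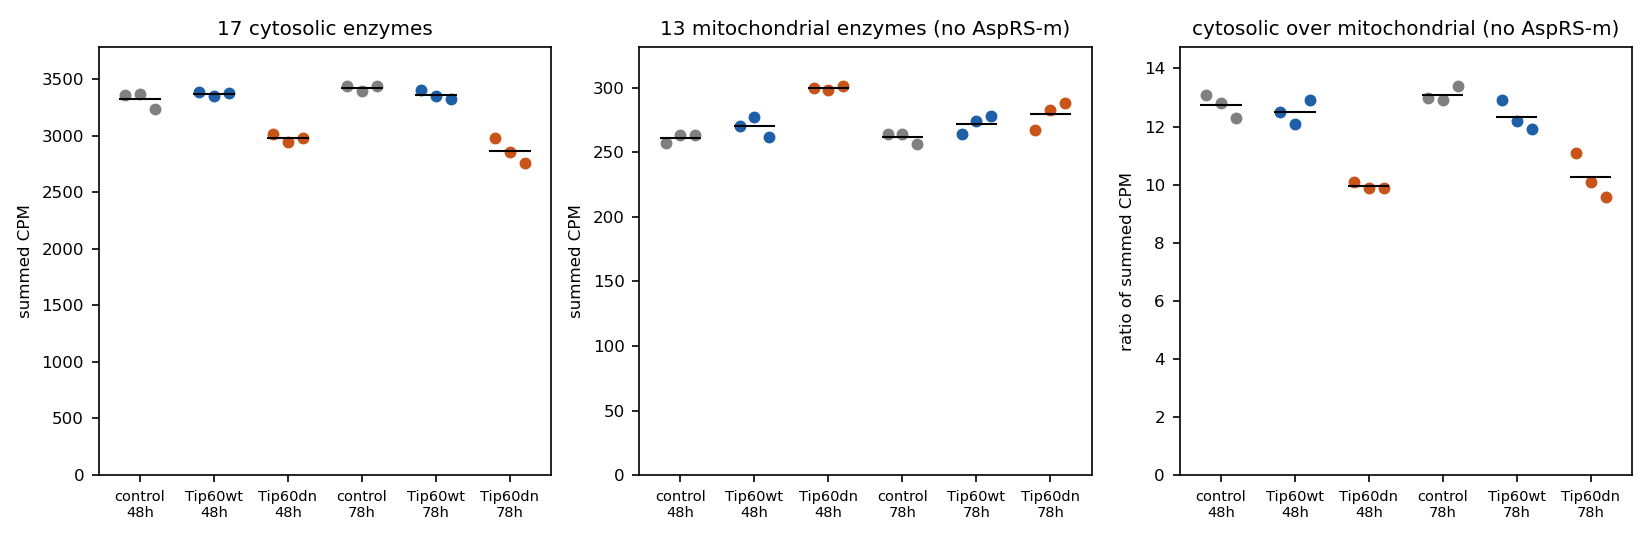
Summed CPM of the 17 cytosolic and of 13 mitochondrial enzymes without AspRS-m, and the ratio of these sums, in each library (points) with group means (lines). The cytosolic sum is at most 3020 in the Tip60dn libraries and at least 3242 elsewhere, and the ratio is at most 11.1 against at least 11.9.

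The ratio of a cytosolic enzyme to the mitochondrial enzyme for the same amino acid, taken within a library, does not depend on how libraries are scaled. It could be formed for 11 amino acids, per kb of exon. In the control at 48 h it ran from 0.746 for aspartate, the only amino acid whose mitochondrial enzyme was the higher, to 13.7 for alanine. The mean ratio was lower in Tip60dn than in Tip60wt for 9 of 11 amino acids at 48 h and for 10 of 11 at 78 h, with a median log2 change of −0.28 and −0.25. Against the control it was lower for 9 and 10 of 11, with medians of −0.32 and −0.28. These comparisons share the Tip60dn libraries.

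The methionine pair moved farthest in 3 of the 4 comparisons, and against the control at 78 h the isoleucine pair did, by −0.67 on the log2 scale against −0.61 for methionine. The methionine ratio was 11.6 ± 0.503 (SD, n = 3) in the control, 11.7 ± 0.983 in Tip60wt and 7.36 ± 0.111 in Tip60dn at 48 h, and 12.5 ± 0.575, 11.5 ± 0.337 and 8.18 ± 0.139 at 78 h. Both enzymes of the pair contributed, since MetRS fell and MetRS-m rose. The isoleucine pair came to 7.76 ± 0.480, 6.85 ± 0.141 and 5.00 ± 0.208 at 48 h, and to 8.27 ± 0.437, 6.85 ± 1.03 and 5.22 ± 0.495 at 78 h. Tip60dn lay below the other groups without overlap in both pairs at both durations. For aspartate the ratio rose from 0.746 ± 0.0219 in the control and 0.791 ± 0.0268 in Tip60wt to 0.895 ± 0.0156 in Tip60dn at 48 h, where AspRS-m fell and AspRS was not called. The tryptophan ratio overlapped between Tip60dn and Tip60wt at both durations, at 3.94 and 3.93 at 48 h and 3.56 and 3.71 at 78 h. With 3 libraries in each group an exact permutation test could not reach 0.05, and none was run on the ratios.

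**Figure D5:**
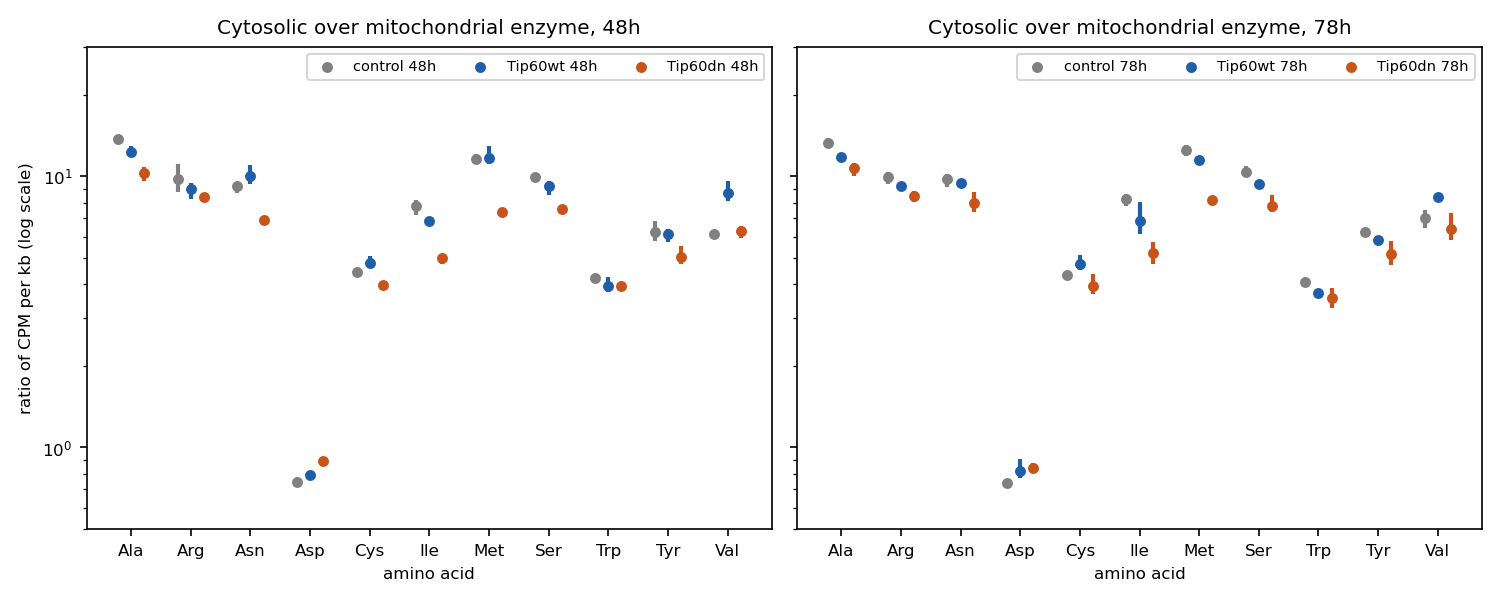
Ratio of cytosolic to mitochondrial enzyme in CPM per kb of exon (log axis) for 11 amino acids at 48 h and 78 h, points being group means and bars the range of 3 libraries. Tip60dn (orange) is below control and Tip60wt for most amino acids, such as methionine at 7.36 against 11.6 and 11.7 at 48 h, and its mean is above theirs for aspartate, where it overlaps Tip60wt at 78 h.

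The wild type transgene by itself changed few synthetase genes. Against the control 2 members were called at 48 h, IleRS-m higher and ValRS-m lower, with the values given above, beside 3.57% of all genes, 1.73% higher and 1.84% lower. At 78 h none was called in edgeR's test, beside 4.07% of all genes, 2.09% higher and 1.97% lower, and 7 of 31 members had an unadjusted p under 0.05, beside 20.4% of all genes. DESeq2 called 5 members there, beside 7.68% of the genes to which it gave an adjusted p. The cytosolic median was 0.01 at 48 h.

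Time at 28 °C was asked of each arm in a fit of all 18 libraries. No member was called between 78 h and 48 h by edgeR or by DESeq2, in the control (0% of all genes called by edgeR), in Tip60wt (0%) or in Tip60dn (0.134%, 0.0537% higher and 0.0806% lower). Unadjusted p fell under 0.05 for 1, 1 and 11 of the 31 members, beside 5.08%, 4.07% and 8.23% of all genes. Of these the lowest was AsnRS-m in Tip60dn, at 15.8 ± 0.486 CPM after 48 h and 13.1 ± 0.799 after 78 h, a log2 difference of −0.27 (SE 0.07, adjusted p 0.225). The change of the Tip60dn effect with time was also tested as an interaction, against Tip60wt and against the control, and no member or other gene was called by edgeR in either, with 4 and 7 members under 0.05 unadjusted, beside 5.58% and 6.95% of all genes. DESeq2 called 4 and 34 genes in the interactions, none of them a member. The larger number of cytosolic calls at 78 h is thus not shown to be a difference between durations. The interaction log2 values were negative for 26 of 31 members against Tip60wt and for all 31 against the control. These values share the Tip60dn libraries, and their common direction was not tested. The durations were deposited as separate tables, so duration and any difference in handling cannot be told apart.

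Other genes of tRNA charging and translation were read from short lists. All 5 tested genes for the PheRS subunits and the complex scaffold were lower in Tip60dn than in Tip60wt at both durations, with a median log2 fold change of −0.23 each time. AIMP2, a scaffold protein of the complex, measured 84.8 ± 1.51 CPM in Tip60wt and 70.0 ± 1.17 in Tip60dn at 48 h (−0.27, adjusted p 4.65e-04), and was −0.28 at 78 h (adjusted p 0.00134). The phenylalanine enzyme has an alpha and a beta subunit: beta-PheRS was −0.20 at 48 h (adjusted p 0.00304), and alpha-PheRS −0.24 at 78 h (adjusted p 0.00299). Against the control 4 of 5 were lower at each duration, AIMP3 being the exception. For comparison, 17.7% and 19.2% of all genes were lower than in Tip60wt at the 2 durations, and 19.4% and 21.7% lower than in the control. The means of alpha-PheRS, beta-PheRS and AIMP2 were above 50 CPM. Among genes of that level 34.4% and 36.0% were lower than in Tip60wt, and 37.8% and 39.9% lower than in the control.

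A further list holds genes that act beside the mitochondrial enzymes. Of its 3 tested genes, Slimp, a mitochondrial relative of the serine enzyme, was higher at 48 h (0.22, adjusted p 0.0272), and none was called at 78 h against Tip60wt. Of 4 tested mitochondrial elongation factors, mEFTu2 was higher at 48 h (0.26, adjusted p 0.0124) and 78 h (0.24, adjusted p 0.00701). Its paralogue mEFTu1 was lower at both (−0.29 and −0.33, adjusted p 8.65e-04 and 7.86e-04), and 1 more was lower at each duration, mEFTs at 48 h (−0.21, adjusted p 0.0254) and mEFG1 at 78 h (−0.15, adjusted p 0.0246). The mean of mEFTs at 48 h was 58.6 CPM in the control, 66.4 in Tip60wt and 57.0 in Tip60dn, so Tip60wt was the high group. Beside the counts of both lists, 18.0% of all genes were higher and 17.7% lower than in Tip60wt at 48 h. At 78 h these shares were 17.6% and 19.2%.

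A list of 7 cytosolic elongation factors was read in the same way. Of these eEF1alpha1 and eEF5 were not matched to a gene by symbol, so they were not tested. Of 5 tested, 3 were higher and none lower in Tip60dn than in Tip60wt at both durations, beside 18.0% and 17.6% of all genes higher. Against the control 4 were higher at 48 h, beside 19.6% of all genes. At 78 h 2 were higher and 1 lower than in the control, beside 22.4% and 21.7% of all genes. The level of eEF1alpha2 was 64.2 ± 14.2 CPM in Tip60wt and 215.5 ± 33.5 in Tip60dn at 48 h (1.75 on the log2 scale, adjusted p 4.16e-04), and 52.3 ± 8.73 and 278 ± 10.2 at 78 h (2.41). For eEF1gamma the log2 fold change was 0.21 (adjusted p 0.00759) and 0.19 (adjusted p 0.00628).

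A list named for the amino acid response held 11 tested genes, among them also PEK, Xrp1, Irbp18 and trbl. Of the 11, 6 were higher and 2 lower than in Tip60wt at 48 h, and 5 higher and 2 lower at 78 h. Beside them, 18.0% and 17.6% of all genes were higher and 17.7% and 19.2% lower. Whether these counts reflect a response to amino acids was not tested. The gene crc, the fly ATF4, a transcription factor of that response, was at 1226 ± 60.8 CPM in Tip60wt and 1889 ± 105.0 in Tip60dn at 48 h (0.63, adjusted p 6.41e-05), and 0.56 higher at 78 h. PEK, an eIF2alpha kinase, was 0.40 and 0.28 higher. Lower were aay, a phosphatase of serine synthesis (−1.33 and −0.85), and Nmdmc, a mitochondrial enzyme of folate metabolism (−0.34 and −0.56). For aay Tip60wt was the high group, and the Tip60dn mean was above that of the control. Its means were 2.7 CPM in the control, 9.1 in Tip60wt and 3.6 in Tip60dn at 48 h. At 78 h they were 2.8, 7.1 and 3.9 CPM in the same order. Of 8 tested genes of tRNA processing, 1 was lower at 48 h and 3 at 78 h, beside 17.7% and 19.2% of all genes, among them the methyltransferase Nsun2 (−0.35 at each) and Elp3, of the elongator complex (−0.22 at 78 h).

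Markers of other cell types moved with Tip60dn as well. The 11 hemocyte markers summed to 1817 to 2084 CPM in Tip60dn at 48 h, against 1397 to 1686 in Tip60wt and 1237 to 1719 in the control, with 9 of 11 called higher against Tip60wt, and none was at 0, with lz, a crystal cell gene, under 1 CPM on average. At 78 h the sums were 1766 to 2092, against 1246 to 1621 and 1412 to 1558, with 9 of 10 tested higher. Against the control 8 of 11 were higher at 48 h and 7 of 10 at 78 h. Of all genes 18.0% and 17.6% were higher against Tip60wt, and 19.6% and 22.4% against the control. Ppn, the highest of these markers, was at 947 CPM in the control, 1094 in Tip60wt and 1074 in Tip60dn at 48 h. At 78 h it was at 977, 994 and 1163 CPM. Single markers were less separate at 78 h than the sums. The lowest Tip60dn value lay within the control range for Hml (60.7 against 58.1 to 63.4 CPM) and Pxn (45.5 against 39.9 to 46.4). The same held for crq, Col4a1, vkg and lz, and for NimC1 the lowest Tip60dn value was below the control range. For eater, srp, SPARC and Ppn all Tip60dn values were above the control. The 4 trachea markers summed to 692 to 718 CPM at 48 h against 522.3 to 548, and to 679 to 717 at 78 h against 503 to 550.3. Of these 2 were called higher against Tip60wt at 48 h and 3 at 78 h. The mean of obst-A was lower in Tip60dn at 48 h, at 123.1 CPM against 139.0 in Tip60wt and 133.0 in the control. Muscle and myoblast markers, 7 in number, made 471 to 527 CPM in Tip60dn at 78 h against 375 to 409, with all 7 called higher against Tip60wt. At 48 h they made 416 to 471 CPM against 384 to 438, with overlap, and 1 was called higher against Tip60wt. Of 7 fat body markers 2 were called lower against Tip60wt at 48 h, beside 17.7% of all genes. That Tip60wt group holds the replicate with the high fat body sum. Of 6 salivary gland markers 1 was called higher against Tip60wt and 2 against the control at 48 h. At 78 h no fat body or salivary gland marker was called in these comparisons. The part of all these cell types in the synthetase values was not tested. None of the 6 wing disc markers was called against Tip60wt at either duration, and against the control 1 was higher in Tip60dn at 48 h and 2 at 78 h, with median log2 fold changes of 0.16 and 0.15.

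Results that rest on the libraries with fat body or salivary gland markers were also taken without them. Without Tip60wt 48 h replicate 2, 17 members were called between Tip60dn and Tip60wt at 48 h in place of 19. Without control 78 h replicate 1, 17 were called between Tip60dn and control at 78 h in place of 20.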

How the data were processed

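RNA libraries of 18 wing disc pools were analysed from counts per gene, deposited by the authors as raw whole numbers in separate tables for 48 h and 78 h. FastQC, featureCounts, limma and edgeR 3.13.4 are named, with build BDGP6, per the submitters' processing notes. Not given in the sources used here: aligner, strand setting and treatment of multi-mapped reads. Symbols and exon lengths came from Ensembl release 115 and matched 17253 of 17559 IDs, and the other 306 held 5.69% to 6.01% of counts.

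Genes were tested in edgeR 4.0.16 under R 4.3.3: filterByExpr (minimum 10 counts), TMM factors and the quasi-likelihood test, two-sided, with Benjamini-Hochberg adjustment over all genes. The 9 libraries of a duration were fitted together, or all 18 for time and interactions. CPM are counts per 1e6 library counts with TMM factors of the 18-library fit. SE is the log2 fold change over the root of F. DESeq2 1.42.0, RLE factors, no filter, a replicate block, 6-library fits and leaving out libraries were alternatives. Scripts were tested on simulated data.

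Genes with full values were, per comparison of Tip60dn and compartment, up to 4 called members with the smallest adjusted p in each direction, up to 2 for other comparisons, and the highest and lowest level of each compartment. Lists name up to 2 genes each way. Members and lists were chosen with earlier results of these data known. Between Tip60dn and Tip60wt at 78 h, same-numbered libraries deviated together (correlations 0.291, 0.354 and 0.316 across genes), and the replicate block changed no member's call there.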

Additional observations from a re-analysis of the deposited data

How the results depend on the processing

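The number of calls of Tip60dn against Tip60wt and control depended in part on single libraries, and no call reversed. With 1 library left out, 14 to 17 and 14 to 19 members were called against Tip60wt at 48 h and 78 h. Against control 13 to 18 and 17 to 22 were called. Cytosolic genes called lower than in Tip60wt then numbered 7 to 9 at 48 h and 11 to 16 at 78 h. With all libraries they numbered 11 and 16. Against control they numbered 6 to 11 and 14 to 16, where all libraries gave 11 and 15. Over all members, 55 of the 75 calls in these comparisons held under every alternative and 20 were lost under at least 1. Members given with full values by rule, chosen for their small adjusted p, kept 379 of 385 calls over the alternatives, the other 6 being in LeuRS-m and GluRS-m. For Tip60wt against control, DESeq2 called 4 members at 48 h in place of 2, and leaving out libraries gave 2 each time. At 78 h, in place of none, DESeq2 called 5, the replicate block 2, the 6 libraries alone 1, and leaving out 1 library 0 to 1. The cause was not tested. With the replicate block 18 and 18 members were called against Tip60wt at 48 h and 78 h, 19 and 21 against control. Only the 78 h pairs of Tip60dn and Tip60wt met the pairing rule. Time contrasts and interactions gave 0 members under every alternative run. Between TMM, RLE and DESeq2 scaling the median of all genes moved by at most 0.01. The lowest member count was 413 (GluRS-m), and 3 libraries a group limit the precision.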
